A study of Homo sapiens with 15 samples.

Results

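The genes described here are 10 transcripts that handle membrane lipids or respond to them: the liver X receptors NR1H2 and NR1H3, the lipid transporters ABCA1, ABCG1, ABCA2, ABCA3 and ABCA7, the ubiquitin ligase MYLIP, and the lysosomal cholesterol carriers NPC1 and NPC2. They were chosen by name as 10 of the 26475 genes in the table, and all 10 had enough counts to enter the tests, which covered 12795 genes. The deposited expected counts of these 10 were whole numbers in all 15 libraries.

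Liver X receptors are nuclear receptors that bind oxysterols, the oxidised forms of cholesterol, and act as heterodimers with retinoid X receptors on direct repeats in the DNA. When a cell holds excess cholesterol, their targets move it out: ABCA1 loads lipid-poor apolipoprotein A-I, ABCG1 delivers cholesterol to high-density lipoprotein, and MYLIP, a ubiquitin ligase, limits the uptake of lipoprotein cholesterol. Cholesterol taken up in lipoproteins leaves the lysosome through NPC2 and then NPC1. ABCA3 has a separate task in the lung, where it loads phospholipid into the lamellar bodies of alveolar type II cells.

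The RNA came from A549, an established human lung adenocarcinoma line, in 15 libraries that form 5 groups of 3. Cells were given IL4 at 10 ng/ml together with Compound A, IL4 together with a pooled siRNA against ALOX15 at 1 µM, IL4 together with a pooled control siRNA, IL4 alone, or nothing. ALOX15 is a lipoxygenase that oxygenates polyunsaturated fatty acids. The treatment time was 48 hours, and all groups but the untreated one had IL4. Below, Compound A, ALOX15 siRNA and control siRNA each stand for that agent with IL4. For Compound A the identity, dose and solvent, and for the control siRNA the dose, are not given in the sources used here, and no group had Compound A or an siRNA without IL4. The labels number 3 libraries per group without saying whether they are separate cultures, so a p-value here reflects the spread among libraries, which may be technical.

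Libraries held 6407936 to 11031246 counts, with a median of 7442934. Levels are counts per 1e6 counts (CPM) on library sizes scaled by TMM, the trimmed mean of M-values. The siRNA target ALOX15 averaged 0.236 ± 0.0911 CPM with ALOX15 siRNA and 3.58 ± 0.313 CPM with control siRNA (SD, n = 3 each), a log2 change of -3.85 (SE 0.43, edgeR adjusted p = 8.5e-05). IL4 replicate 1 differed from the other two libraries of its group: its genes deviated by -0.30 on the log2 scale at 40% transcript GC and by 0.29 at 60% GC, while every other library lay between -0.11 and 0.09. ABCA7, ABCA2, NR1H2 and ABCA3 have 60.2% to 64.2% GC, so many of their values that rest on this library are given with and without it. The line is labelled alveolar type II-like, but 8 of 9 type II markers fell below the expression filter, SFTPB and SLC34A2 were at 0 in all 15 libraries, and the 9 summed to 1.99 to 7.24 CPM. Epithelial markers (6 of 6 tested) summed to 8495 to 12441 CPM in the IL4-treated libraries and to 6342 to 7249 CPM in the untreated ones. Macrophage markers, of which 5 of 10 including PTPRC were at 0 throughout, summed to 8.19 to 13.0 CPM with Compound A. They summed to 18.1 to 25.3 CPM with IL4 alone and 12.2 to 16.0 CPM untreated. Most of that sum was CD68, at 7.03 to 21.8 CPM over the 15 libraries, while ITGAM reached 2.99 and CD14 1.16 CPM. Fibroblast markers, with COL1A2 at 0, summed to 8.82 to 12.3 CPM with Compound A. Their sum was 18.9 to 27.3 CPM with IL4 alone and 8.59 to 11.1 CPM untreated. Most of it was COL1A1, at 5.28 to 23.2 CPM over the 15 libraries, while COL3A1 reached 2.97 CPM. Endothelial markers summed to at most 0.844 CPM. The part of these markers in the results was not tested.

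Promoters are shown for ABCA1, the classic liver X receptor target, and for ABCA3 and NPC1, the genes whose changes with IL4 and with Compound A held in every alternative fit. RefSeq gives start-site windows (GRCh38.p14, 250 bases before to 50 after the start) for 9 of the 10 genes, 14 windows in all. Capitals mark matches to a relaxed direct repeat with a 4-base spacer, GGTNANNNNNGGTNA, or to the E-box CACGTG, searched on both strands.
ABCA1 (chr9:104928106-104928405, minus strand): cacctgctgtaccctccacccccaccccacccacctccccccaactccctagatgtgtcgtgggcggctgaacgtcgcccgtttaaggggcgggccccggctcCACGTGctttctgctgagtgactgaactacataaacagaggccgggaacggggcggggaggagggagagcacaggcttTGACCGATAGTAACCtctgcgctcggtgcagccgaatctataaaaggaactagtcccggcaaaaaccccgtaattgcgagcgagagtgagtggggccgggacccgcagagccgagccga
ABCA3 (chr16:2340679-2340978, minus strand): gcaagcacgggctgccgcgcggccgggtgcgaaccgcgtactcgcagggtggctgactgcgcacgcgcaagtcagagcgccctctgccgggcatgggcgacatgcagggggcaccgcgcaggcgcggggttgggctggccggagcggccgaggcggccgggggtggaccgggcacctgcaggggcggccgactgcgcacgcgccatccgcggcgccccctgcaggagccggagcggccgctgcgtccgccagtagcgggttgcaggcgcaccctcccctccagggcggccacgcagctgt
NPC1 (chr18:23586457-23586756, minus strand): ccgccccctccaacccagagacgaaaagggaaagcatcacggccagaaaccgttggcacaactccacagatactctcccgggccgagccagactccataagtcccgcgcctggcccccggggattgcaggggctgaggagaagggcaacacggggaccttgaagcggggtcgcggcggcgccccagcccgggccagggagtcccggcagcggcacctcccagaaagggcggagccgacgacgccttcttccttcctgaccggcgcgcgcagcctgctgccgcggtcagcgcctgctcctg
The relaxed repeat, written with the known ABCA1 element in mind, matched 0.626% of 35116 windows and, among these genes, only ABCA1, 69 bases before the start, on the strand opposite to the gene. The 35116 windows leave out a chromosome that carries none of these genes. The full consensus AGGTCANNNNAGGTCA matched 0.0199% of windows and none of the 14. The E-box, which many basic helix-loop-helix factors bind, matched 7.26% of windows and only ABCA1 among the 14, 147 bases before the start. The palindrome TTCNNNNGAA, the form that STAT6 binds, matched 6.44% of windows and none of the 14, ABCA3 and NPC1 included. A match describes the letters in the window and no more.

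Per kilobase of merged exons (GENCODE 29), the receptor NR1H2 was the most abundant of the 10, at 21.2 CPM per kb with IL4 alone and 20.0 untreated, and NPC2 followed at 17.9 CPM per kb with IL4 alone and 14.7 untreated. ABCA3, NPC1 and ABCA2 lay at 7.80, 6.87 and 6.82 CPM per kb with IL4, and at 4.75, 6.86 and 5.84 untreated. ABCA7 and ABCA1 lay at 4.09 and 3.60 CPM per kb with IL4, against 2.77 and 2.95 untreated. The lowest were ABCG1, MYLIP and NR1H3, at 2.22, 2.06 and 1.85 CPM per kb with IL4 and 2.92, 2.71 and 2.24 untreated. Across the 5 groups, 6 of the 10 genes differed (edgeR test of any difference, adjusted p under 0.05), where 30.9% of all genes did. They were ABCA3 (adjusted p = 2.0e-06), NPC1 (4.1e-04), ABCA1 (4.5e-04), NPC2 (0.0028), ABCA7 (0.019) and ABCG1 (0.034). The adjusted p-values of ABCA2, NR1H2, MYLIP and NR1H3 were 0.071, 0.17, 0.36 and 0.46.

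**Figure D1:**
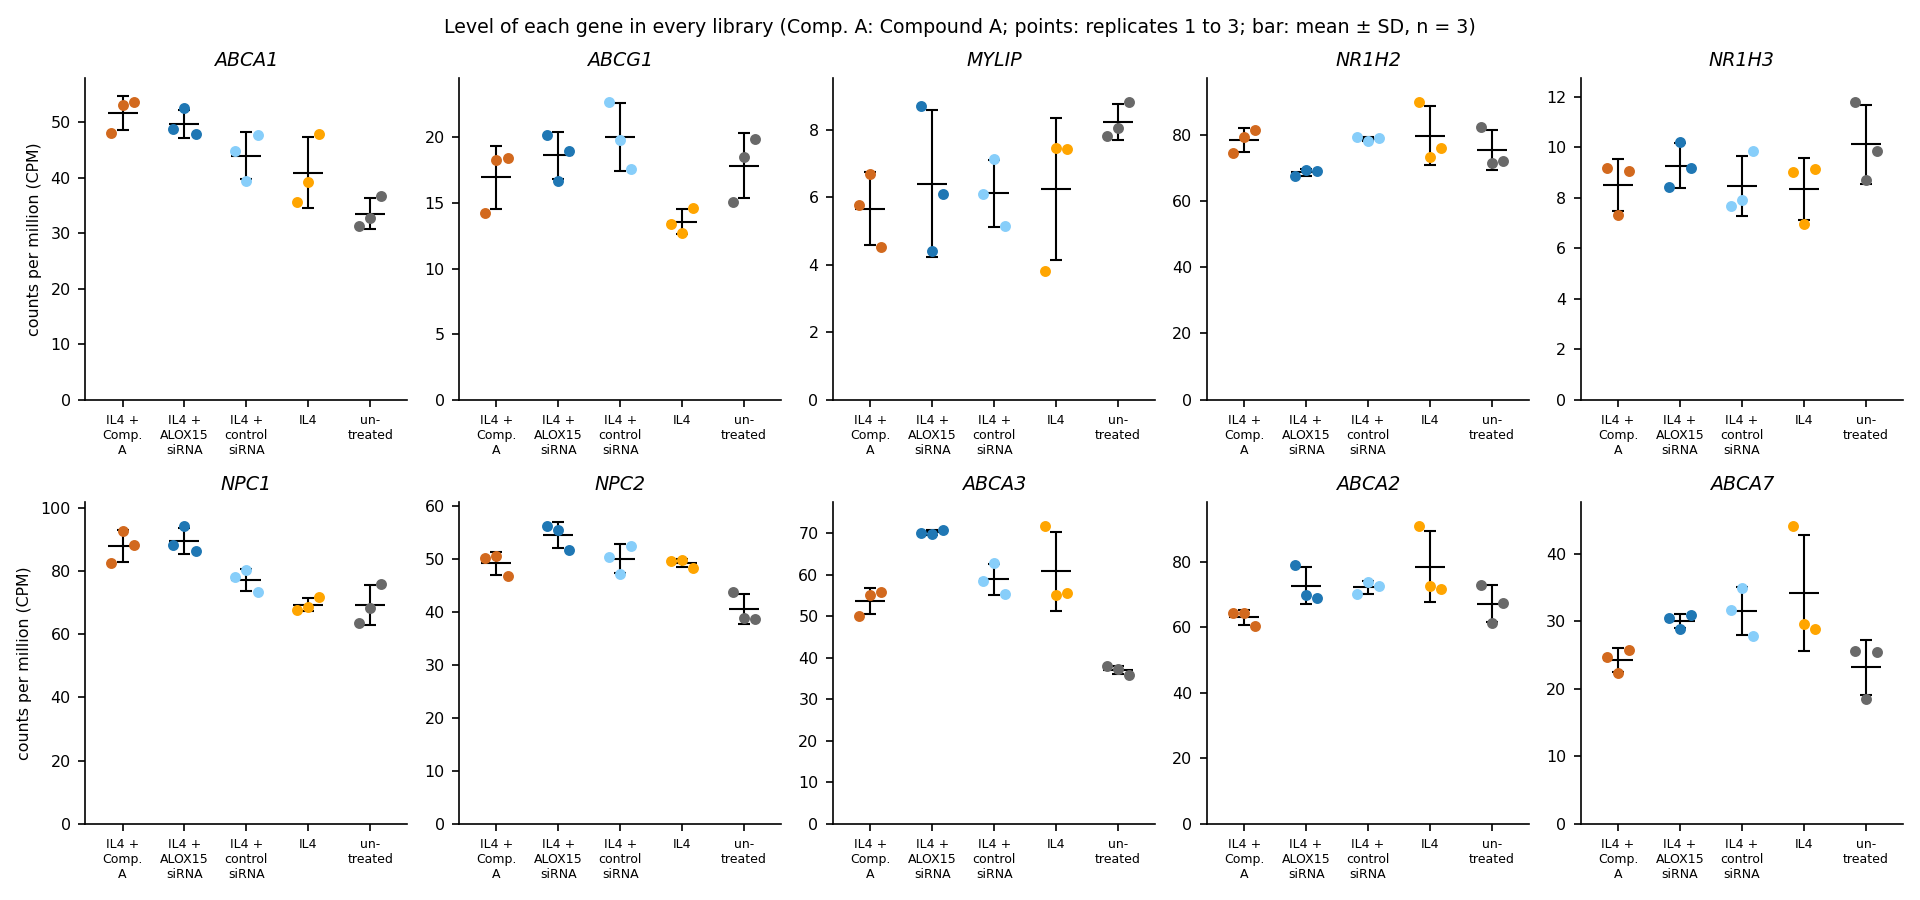
Level of each of the 10 genes (vertical axis, CPM from 0) in the 15 libraries, by group (horizontal axis); points are replicates 1 to 3 and bars the mean ± SD. ABCA3 is low in the 3 untreated libraries (35.9 to 37.9 CPM), and IL4 replicate 1 is the highest library for ABCA2, ABCA3, ABCA7 and NR1H2.

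IL4 alone raised 4 of the 10 genes and lowered none, where 11.2% of all genes rose, 11.6% fell and 22.9% passed in either direction. Those that rose were the phospholipid transporter ABCA3, ABCA7, the cholesterol exporter ABCA1 and the lysosomal carrier NPC2. Both receptors, NR1H2 and NR1H3, and NPC1, MYLIP, ABCG1 and ABCA2 did not pass. The libraries of the 2 groups did not overlap for 5 of the 10 genes, ABCA3, ABCA7 and NPC2 being higher and ABCG1 and MYLIP lower, and for 33.5% of all genes. The median log2 change was 0.15 over the 10 genes and -0.02 over all genes tested. Without untreated replicate 2, 2 of the 10 passed, ABCA3 and NPC2, and in a fit of the compared groups alone 1 passed, ABCA3. In a bulk library, a change in RNA per cell and a change in the share of cells that make it cannot be told apart.

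Compound A raised 2 of the 10 genes relative to IL4 alone, NPC1 and ABCA1, and lowered 2, ABCA2 and ABCA7. Of all genes 6.35% rose, 8.07% fell and 14.4% passed in either direction. The 3 Compound A libraries did not overlap those of IL4 alone for these 4 genes, nor for 31.9% of all genes. The median log2 change was -0.01 over the 10 genes and 0.00 over all. The call of NPC1 held in all 24 alternative fits. With the compared groups alone, or when IL4 replicate 1, Compound A replicate 2 or Compound A replicate 3 was left out, NPC1 was the 1 gene of the 10 that passed.

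ALOX15 siRNA changed none of the 10 genes past the threshold relative to control siRNA in edgeR or in DESeq2, where edgeR called 0.696% of all genes (0.313% higher, 0.383% lower). At an unadjusted p under 0.05 there were 3, ABCA3, NPC1 and NR1H2, beside 1140 of all 12795 genes. In 4 of the 10 genes (ABCA3, NPC1 and ABCA1 higher, NR1H2 lower) the 3 libraries of each group did not overlap, as for 18.7% of all genes. The median log2 change was 0.10 over the 10 genes and 0.00 over all.

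The remaining pairs of groups share libraries with the 3 comparisons above. Control siRNA against IL4 alone changed 0 of 12795 genes in edgeR, 628 at an unadjusted p under 0.05, and 2 in DESeq2, none of them among the 10. Of the 10, 1 (ABCG1) had an unadjusted p under 0.05, and the groups did not overlap for 2, ABCG1 and NPC1, both higher with control siRNA, and for 8.62% of all genes. Control siRNA against untreated raised 4, ABCA1, ABCA3, ABCA7 and NPC2, where 9.93% of all genes rose, 9.36% fell and 19.3% passed in either direction, and it shares the untreated libraries with IL4 against untreated. Its groups did not overlap for 5 of the 10, ABCA1, ABCA3, ABCA7 and NPC2 higher and MYLIP lower, and for 36.9% of all genes. Compound A against control siRNA changed none of the 10 in edgeR or DESeq2, where 1.86% of all genes rose, 3.42% fell and 5.28% passed. In that comparison 4 of the 10 (NPC1 and ABCA1 higher, ABCA2 and ABCA7 lower) had an unadjusted p under 0.05 and groups that did not overlap. Of all 12795 genes, 2563 had an unadjusted p under 0.05, and the groups did not overlap for 30.6%. The share of genes with both was not counted. ALOX15 siRNA against IL4 alone raised 1, NPC1, where 0.649% of genes rose, 0.571% fell and 1.22% passed. Its groups did not overlap for 4 of the 10, ABCG1, NPC1 and NPC2 higher and NR1H2 lower, and for 16.8% of all genes. The Compound A effect minus the ALOX15 siRNA effect passed for 1, ABCA3, with a lower value for Compound A, where 1.94% of all genes were higher, 3.20% lower and 5.14% passed. In these 8 comparisons 14 of the 80 gene and comparison pairs passed.

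**Figure D2:**
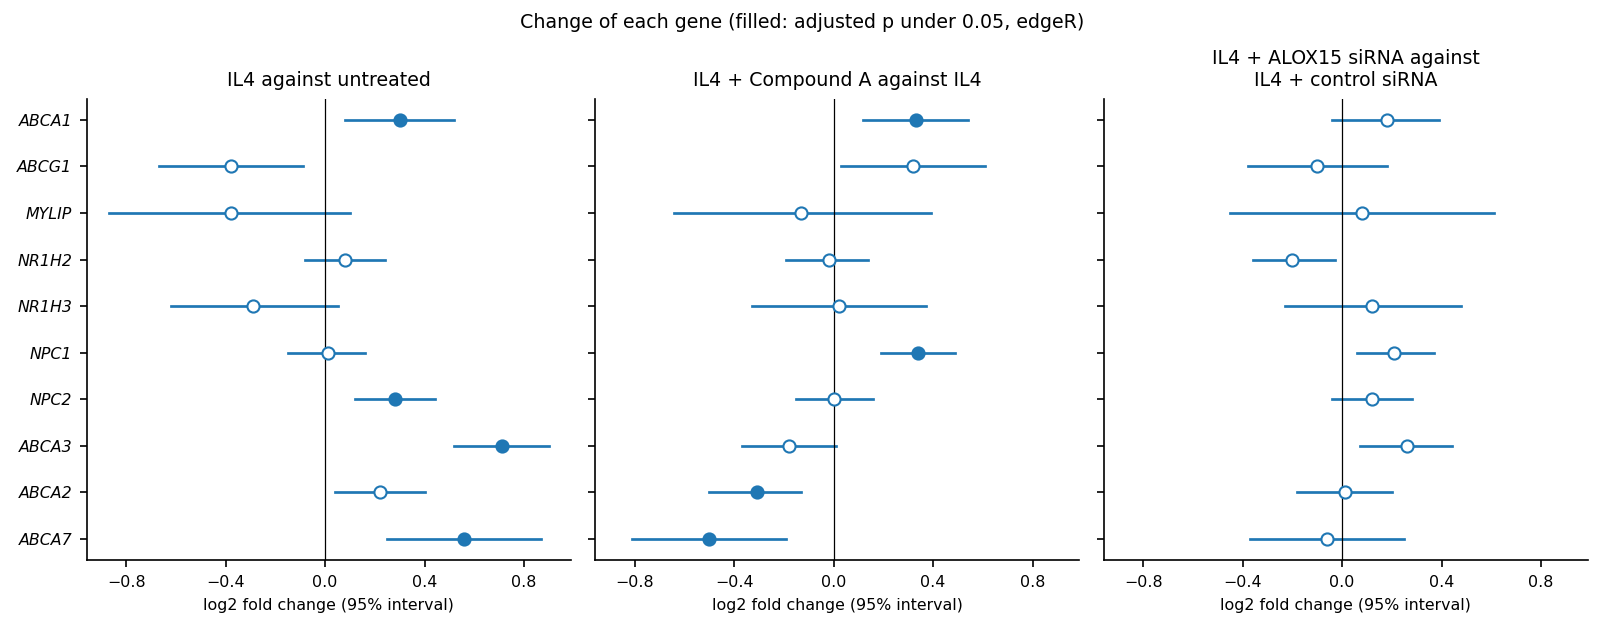
Log2 fold change (horizontal axis) of each gene with its 95% interval in the 3 main comparisons; filled points have an edgeR adjusted p under 0.05. With IL4 the filled points are ABCA1, NPC2, ABCA3 and ABCA7, with Compound A they are ABCA1 and NPC1 to the right and ABCA2 and ABCA7 to the left, and with ALOX15 siRNA there are none.

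Neither receptor passed in the main comparisons. NR1H2, the broadly expressed liver X receptor beta (chr19:50329653-50382982, plus strand), had 74.4, 79.2 and 81.4 CPM with Compound A, against 89.8, 73.3 and 75.9 CPM with IL4 alone. With ALOX15 siRNA it had 67.5, 69.4 and 68.9 CPM, under control siRNA 79.2, 77.9 and 78.9 CPM, and untreated 82.2, 71.5 and 72.0 CPM. The 3 ALOX15 siRNA libraries were below the 12 others, and the remaining groups overlapped. Its group means ranged over 0.21 on the log2 scale. The log2 change was 0.08 with IL4 (95% interval -0.08 to 0.24, edgeR adjusted p = 0.51), -0.02 with Compound A (-0.19 to 0.14, 0.86) and -0.20 with ALOX15 siRNA (-0.36 to -0.03, 0.41). The Compound A value turned to 0.19 (adjusted p = 0.021) after correction for GC content and to 0.07 (0.61) without IL4 replicate 1. The value for IL4 against untreated without that library, which had 89.8 CPM, is not reported here.

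NR1H3, liver X receptor alpha, is the form enriched in liver, fat and macrophages (chr11:47248300-47269032, plus strand), and its counts were low here. It had 9.18, 7.33 and 9.06 CPM with Compound A, 8.44, 10.2 and 9.18 CPM with ALOX15 siRNA and 7.67, 7.90 and 9.85 CPM with control siRNA. With IL4 alone it had 9.01, 6.95 and 9.14 CPM, and untreated 11.8, 8.71 and 9.86 CPM. All neighbouring groups overlapped, the untreated mean being the highest. The intervals were wide: the log2 change was -0.29 with IL4 (95% interval -0.62 to 0.05, edgeR adjusted p = 0.21), 0.02 with Compound A (-0.33 to 0.37, 0.95) and 0.12 with ALOX15 siRNA (-0.23 to 0.48, 0.91). After correction for GC content the IL4 change was -0.42 (adjusted p = 0.042). Exons of ACP2, on the opposite strand, overlap 189 bases (4.17%) of the exons of NR1H3, and the strand setting of the counting is not given. ACP2 changed by 0.160 with IL4 (adjusted p = 0.33).

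Of the receptor's targets among the 10, ABCA1 (chr9:104781002-104928237, minus strand) had its highest mean with Compound A, followed by ALOX15 siRNA, control siRNA, IL4 alone and untreated. It had 48.1, 53.1 and 53.6 CPM with Compound A (51.6 ± 3.04, SD, n = 3) and 48.7, 52.6 and 47.8 CPM with ALOX15 siRNA (49.7 ± 2.55). With control siRNA it had 44.7, 39.4 and 47.7 CPM (43.9 ± 4.21), with IL4 alone 35.6, 39.2 and 47.9 CPM (40.9 ± 6.33), and untreated 31.2, 32.7 and 36.6 CPM (33.5 ± 2.79). The Compound A libraries were all above those of IL4 alone, the nearest pair being 48.1 and 47.9 CPM, while IL4 alone and untreated overlapped.

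ABCA1 rose by 0.33 with Compound A relative to IL4 alone (log2, SE 0.10, edgeR adjusted p = 0.033) and by 0.30 with IL4 relative to untreated (SE 0.10, adjusted p = 0.0452). Each call depended on single libraries. The Compound A call was lost without IL4 replicate 1 (0.24, adjusted p = 0.10), IL4 replicate 2 (0.29, 0.091), Compound A replicate 2 (0.31, 0.13) or Compound A replicate 3 (0.30, 0.11), and with the compared groups alone (0.33, 0.13). The IL4 call was lost without untreated replicate 1 (0.27, 0.11) or 2 (0.31, 0.095), IL4 replicate 3 (0.17, 0.25) or ALOX15 siRNA replicate 1 (0.30, 0.058), and with the compared groups alone (0.32, 0.14). Against untreated, control siRNA gave 0.40 (adjusted p = 0.0092), and that call held in all 24 alternative fits. ALOX15 siRNA against control siRNA gave 0.18 (95% interval -0.04 to 0.39, adjusted p = 0.68), and Compound A against control siRNA gave 0.23 (0.02 to 0.44, 0.21).

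ABCG1 (chr21:42199689-42297244, plus strand), the exporter that serves high-density lipoprotein, passed in none of the pairs of groups. It had 14.2, 18.3 and 18.4 CPM with Compound A, 20.2, 16.7 and 19.0 CPM with ALOX15 siRNA and 22.7, 19.8 and 17.6 CPM with control siRNA. With IL4 alone it had 13.4, 12.7 and 14.6 CPM, and untreated 15.1, 18.5 and 19.9 CPM. The 3 IL4 libraries were below the untreated and both siRNA groups, and overlapped those of Compound A. The log2 change with IL4 alone was -0.38 (SE 0.14, edgeR adjusted p = 0.0529), and it passed after correction for GC content (-0.46, 0.0081) and without untreated replicate 1 (-0.47, 0.024) or IL4 replicate 3 (-0.44, 0.045). Control siRNA against untreated gave 0.18 (95% interval -0.10 to 0.46, adjusted p = 0.38). Between those IL4-treated groups, control siRNA against IL4 alone gave 0.56 (SE 0.14, 95% interval 0.27 to 0.85), with an adjusted p of 0.90 over all genes. Compound A gave 0.32 (0.03 to 0.61, adjusted p = 0.13) and ALOX15 siRNA against control siRNA -0.10 (-0.38 to 0.18, 0.90). The test over all 5 groups passed for ABCG1, with the highest group mean in control siRNA (20.0 ± 2.59 CPM) and the lowest in IL4 alone (13.6 ± 0.971 CPM).

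MYLIP (chr6:16129125-16148248, plus strand), the ubiquitin ligase that limits lipoprotein uptake, was the least abundant of the 10 in CPM. It had 5.76, 6.69 and 4.53 CPM with Compound A, 8.71, 4.40 and 6.08 CPM with ALOX15 siRNA and 6.08, 7.13 and 5.14 CPM with control siRNA. With IL4 alone it had 3.82, 7.47 and 7.44 CPM, and untreated 7.80, 8.04 and 8.82 CPM. The untreated libraries were above all libraries of IL4 alone, Compound A and control siRNA, and overlapped those of ALOX15 siRNA. The log2 change with IL4 was -0.38 (SE 0.23, 95% interval -0.87 to 0.10, edgeR adjusted p = 0.26), and -0.13 without IL4 replicate 1. The change with Compound A was -0.13 (95% interval -0.64 to 0.39), or -0.37 without IL4 replicate 1, and that with ALOX15 siRNA was 0.08 (-0.45 to 0.61).

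NPC1 (chr18:23506184-23586898, minus strand), the membrane protein that passes cholesterol out of the lysosome, was higher with Compound A and did not pass with IL4. It had 82.7, 92.7 and 88.4 CPM with Compound A (87.9 ± 5.01, SD, n = 3) and 88.2, 94.4 and 86.3 CPM with ALOX15 siRNA (89.7 ± 4.22). With control siRNA it had 78.2, 80.4 and 73.5 CPM (77.4 ± 3.53), with IL4 alone 67.8, 68.6 and 71.8 CPM (69.4 ± 2.13), and untreated 63.5, 68.3 and 76.1 CPM (69.3 ± 6.31). Compound A and ALOX15 siRNA overlapped each other, and every library of each was above all those of control siRNA and of IL4 alone. IL4 alone and untreated overlapped.

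NPC1 rose by 0.34 with Compound A relative to IL4 alone (log2, SE 0.07, edgeR adjusted p = 0.0045), and over all 24 alternative fits this ran from 0.30 to 0.38, with adjusted p-values of 3.1e-04 to 0.0479. It also rose by 0.37 with ALOX15 siRNA relative to IL4 alone (SE 0.07, adjusted p = 0.015). That call was lost without IL4 replicate 2 (0.35, adjusted p = 0.068), without ALOX15 siRNA replicate 1 (0.38, 0.059), 2 (0.32, 0.11) or 3 (0.38, 0.062), and with the compared groups alone (0.35, 0.17). Set against control siRNA, the ALOX15 siRNA value was 0.21 (95% interval 0.06 to 0.37, adjusted p = 0.30) and the Compound A value 0.19 (0.03 to 0.34, 0.16, or 0.0490 with the compared groups alone). The Compound A effect minus that of ALOX15 siRNA was 0.13 (-0.09 to 0.35, adjusted p = 0.52). IL4 alone gave 0.01 (-0.15 to 0.16, adjusted p = 0.95). RMC1, on the opposite strand, overlaps 604 bases (5.98%) of the exons of NPC1. It appears in the table under the older symbol C18orf8 and changed by 0.041 with Compound A (adjusted p = 0.83).

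NPC2 (chr14:74476192-74494177, minus strand), the soluble lysosomal protein that hands cholesterol to NPC1, rose with IL4. It had 50.1, 50.6 and 46.7 CPM with Compound A, 56.2, 55.5 and 51.6 CPM with ALOX15 siRNA and 50.4, 47.1 and 52.5 CPM with control siRNA. With IL4 alone it had 49.5, 49.7 and 48.3 CPM, and untreated 43.7, 38.9 and 38.7 CPM. All 12 IL4-treated libraries were above all 3 untreated ones, which held for 2 of the 10 genes (NPC2 and ABCA3) and for 8.00% of all genes. None of the 10 had all 12 below the untreated ones, as 8.85% of all genes did. Relative to untreated, NPC2 rose by 0.28 with IL4 alone (log2, SE 0.08, edgeR adjusted p = 0.011) and by 0.30 with control siRNA (adjusted p = 0.0071). The call with IL4 alone was lost in 1 of 24 alternative fits, that of the compared groups alone (0.30, adjusted p = 0.062). Compound A gave 0.00 relative to IL4 alone (95% interval -0.15 to 0.16) and ALOX15 siRNA 0.12 relative to control siRNA (-0.04 to 0.28). Exons of ISCA2 on the opposite strand overlap 103 bases (3.75%) of those of NPC2, and ISCA2 rose by 0.331 with IL4 (adjusted p = 0.033).

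ABCA3 (chr16:2275881-2340746, minus strand), the lamellar body phospholipid transporter, had the largest IL4 change of the 10. It had 50.1, 55.2 and 55.9 CPM with Compound A (53.7 ± 3.16, SD, n = 3), 70.1, 69.8 and 70.8 CPM with ALOX15 siRNA (70.2 ± 0.551) and 58.5, 62.8 and 55.4 CPM with control siRNA (58.9 ± 3.71). With IL4 alone it had 71.8, 55.2 and 55.6 CPM (60.9 ± 9.45), and untreated 37.9, 37.4 and 35.9 CPM (37.0 ± 1.06). Every IL4-treated library was above every untreated one. Within the IL4 group, replicate 1 was well above the other two, which overlapped Compound A and control siRNA.

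ABCA3 rose by 0.71 with IL4 alone (log2, SE 0.09, edgeR adjusted p = 7.2e-06), and this held in all 24 alternative fits, at 0.56 to 0.81. Without IL4 replicate 1 it was 0.58. Control siRNA against untreated gave 0.66 (adjusted p = 2.0e-05) and also passed in all 24 alternative fits. Compound A gave -0.18 relative to IL4 alone (SE 0.09, adjusted p = 0.18), which became -0.05 without IL4 replicate 1 and 0.00 after correction for GC content. ALOX15 siRNA gave 0.26 relative to control siRNA (SE 0.09, adjusted p = 0.30). That value passed after correction for GC content (0.30, 0.0072), with the compared groups alone (0.26, 0.037) and without IL4 replicate 1 (0.26, 0.038). The Compound A effect minus that of ALOX15 siRNA was -0.44 (SE 0.13, adjusted p = 0.050, under the threshold before rounding). It was -0.30 without IL4 replicate 1 (adjusted p = 0.075), and leaving out any untreated, Compound A or ALOX15 siRNA library, or control siRNA replicate 1 or 3, also ended the call, with adjusted p-values of up to 0.13.

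The surfactant proteins that accompany ABCA3 in type II cells were nearly unmeasured: 4 of 14 surfactant and lamellar body genes could be tested. Of these, 2 rose with IL4. CSF2RA, a chain of the receptor for the cytokine that drives surfactant clearance, averaged 17.5 ± 0.807 CPM with IL4 and 9.57 ± 0.613 CPM untreated (log2 0.87, edgeR adjusted p = 7.6e-04). LPCAT1, which makes surfactant phospholipid, averaged 82.0 ± 7.05 CPM with IL4 and 66.6 ± 5.12 CPM untreated (log2 0.29, adjusted p = 0.0069). LAMP3 and CTSH gave 0.66 and 0.19 without passing. With the compared groups alone 1 rose. None of the 4 passed with Compound A, and none with ALOX15 siRNA, where LPCAT1 gave 0.31 (adjusted p = 0.067). With ALOX15 siRNA 1 of the 4 rose in DESeq2, with GC content correction, with the compared groups alone, and without IL4 replicate 1 or 3.

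ABCA7 and ABCA2 had the highest GC content of the 10, at 64.2% and 63.8%. ABCA7 (chr19:1040101-1065572, plus strand), a phospholipid transporter known as a risk gene for Alzheimer's disease, had 24.7, 22.3 and 25.7 CPM with Compound A, against 44.1, 29.6 and 28.9 CPM with IL4 alone. With ALOX15 siRNA it had 30.4, 28.9 and 30.9 CPM, under control siRNA 31.6, 34.9 and 27.8 CPM, and untreated 25.5, 18.5 and 25.4 CPM. The Compound A libraries overlapped the untreated ones and were below all other IL4-treated libraries. ABCA7 rose by 0.56 with IL4 relative to untreated (log2, SE 0.15, edgeR adjusted p = 0.0090). The value was 0.34 without IL4 replicate 1 (adjusted p = 0.036), and the call was lost without untreated replicate 2 (0.45, 0.0524) and with the compared groups alone (0.58, 0.077). With Compound A relative to IL4 alone it fell by 0.50 (SE 0.15, adjusted p = 0.030).

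The fall of ABCA7 with Compound A depended on single libraries and on the GC correction. It was -0.28 without IL4 replicate 1 (adjusted p = 0.14) and -0.24 after correction for GC content (0.079). The call was also lost without Compound A replicate 1 (-0.52, 0.065), 2 (-0.44, 0.13) or 3 (-0.54, 0.061), and with the compared groups alone (-0.50, 0.11). Compound A against control siRNA, which does not use the IL4 libraries as its baseline, gave -0.38 (95% interval -0.69 to -0.06, adjusted p = 0.17), and passed without IL4 replicate 1 in the fit (adjusted p = 0.016) and with the compared groups alone (0.0091). Control siRNA against untreated gave 0.44 (adjusted p = 0.0464), a call lost in 10 of 24 alternative fits, among them those without untreated replicate 2 (0.32, 0.20), control siRNA replicate 1 (0.45, 0.10) or 2 (0.36, 0.18), each of the ALOX15 siRNA libraries, and Compound A replicate 1 or 3. ALOX15 siRNA gave -0.06 relative to control siRNA (-0.37 to 0.25).

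ABCA2 (chr9:137007227-137028922, minus strand), a transporter of the lysosomal compartment that is abundant in myelinating cells, had 64.5, 64.4 and 60.4 CPM with Compound A, against 91.0, 72.7 and 71.8 CPM with IL4 alone. With ALOX15 siRNA it had 79.2, 69.8 and 69.0 CPM, under control siRNA 70.2, 73.9 and 72.5 CPM, and untreated 72.9, 61.4 and 67.5 CPM. The Compound A libraries were below all other IL4-treated ones and overlapped the untreated. ABCA2 fell by 0.31 with Compound A relative to IL4 alone (log2, SE 0.09, edgeR adjusted p = 0.025). The value was -0.19 without IL4 replicate 1 (adjusted p = 0.12) and -0.06 after correction for GC content (0.53), and the call was also lost without Compound A replicate 2 (-0.33, 0.070) or 3 (-0.29, 0.094), and with the compared groups alone (-0.32, 0.11). IL4 alone gave 0.22 (95% interval 0.04 to 0.40, adjusted p = 0.078) and passed without untreated replicate 1 (0.31, 0.031), IL4 replicate 2 (0.30, 0.036) or IL4 replicate 3 (0.28, 0.033), while correction for GC content left 0.02 (0.88). Each of these fits kept IL4 replicate 1, at 91.0 CPM, and the IL4 value without that library is not reported here. ALOX15 siRNA gave 0.01 relative to control siRNA (-0.18 to 0.20).

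**Figure D3:**
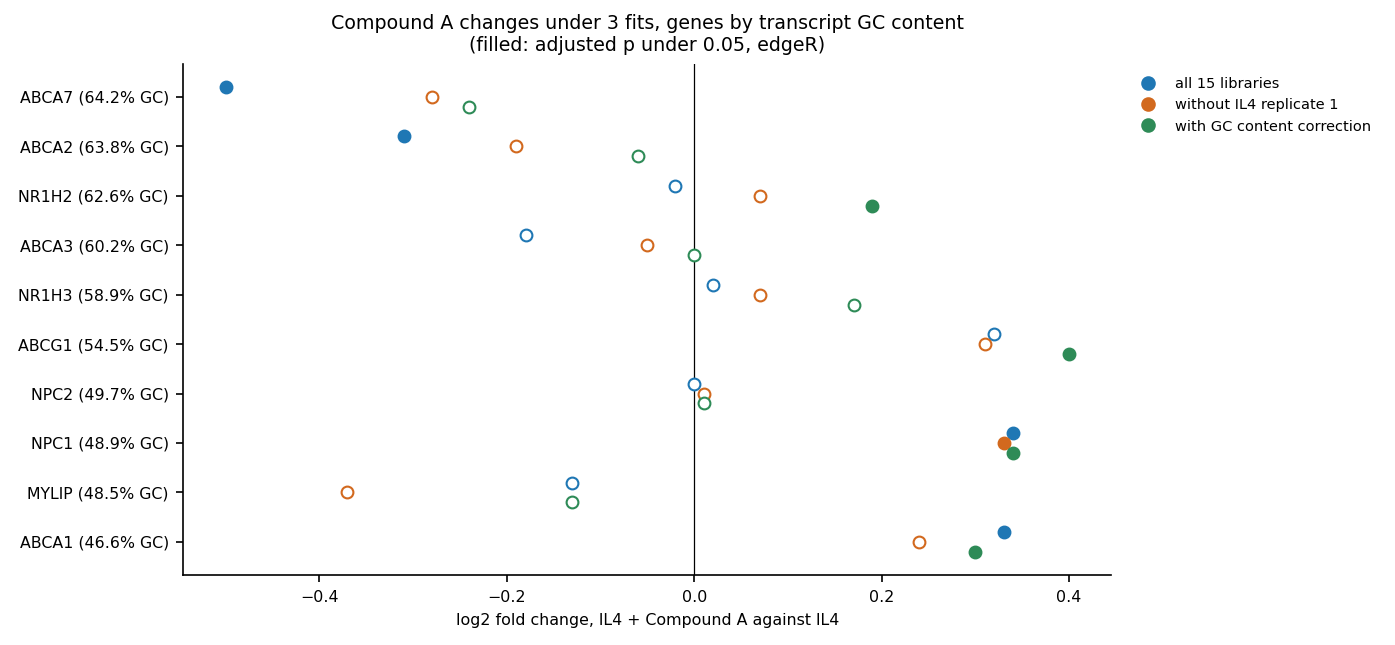
Log2 fold change with Compound A relative to IL4 alone (horizontal axis) for the 10 genes ordered by transcript GC content (vertical axis), fitted with all 15 libraries, without IL4 replicate 1, or with a GC content correction; filled points have an edgeR adjusted p under 0.05. NPC1 stays filled at 0.33 to 0.34, while ABCA7 and ABCA2 shrink to -0.24 and -0.06 with the correction and are then open.

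Genes with the most similar course over the 15 libraries were sought for the 5 members whose group means ranged over at least 0.5 on the log2 scale, by the root mean square difference of centred log2 CPM. For ABCA1 the nearest were SLC16A4 (0.08), STOM (0.09) and MAP1LC3B (0.10). For ABCA3 they were TIMP2 (0.07), ITPR3 (0.08) and TNIP1 (0.09). For ABCA7 they were SYNGR2 (0.10), FAM65A (0.11) and AGRN (0.11). ABCG1 had none closer than 0.14 (ALPK1, then CCZ1B at 0.15 and HOXC9 at 0.16), and MYLIP none closer than 0.22 (ZNF678, NAT1 and CNTLN).

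Around the 10 genes, other liver X receptor targets were mixed. Of 19 listed, 11 could be tested. With IL4, 2 rose and none fell, among them the desaturase SCD, at 2804 ± 118 CPM with IL4 and 1999 ± 100 CPM untreated (log2 0.49, edgeR adjusted p = 4.6e-06). Without untreated replicate 1, 4 rose. With Compound A none rose and 3 fell, all genes of fatty acid synthesis: FASN (190 ± 10.6 CPM with Compound A, 323 ± 90.4 CPM with IL4 alone; log2 -0.77, adjusted p = 0.013), the lipogenic factor SREBF1 (-0.67, 0.015) and SCD (-0.36, 7.8e-04). That count was 1 when either IL4 replicate 1 or Compound A replicate 2 was left out. With ALOX15 siRNA 1 rose, SCD, at 3865 ± 166 CPM with ALOX15 siRNA and 2730 ± 30.8 CPM with control siRNA (0.50, 1.8e-04). Median changes of the 11 were 0.18, 0.03 and 0.07 in these comparisons, beside -0.02, 0.00 and 0.00 over all genes. The apolipoprotein gene APOE gave 0.18 with IL4 and 0.03 with Compound A, and the phospholipid remodelling enzyme LPCAT3 gave 0.26 and 0.11, without passing.

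Among 14 tested partners and coregulators of the receptors, 7 fell with IL4. They included the corepressor NRIP1 (log2 -0.42, edgeR adjusted p = 2.8e-04), the coactivator NCOA3 (-0.34, 0.0016) and the corepressor subunit TBL1X (-0.34, 4.9e-04). The number that fell was 4 without untreated replicate 2 or IL4 replicate 2, and 2 with the compared groups alone. The heterodimer partners RXRA and RXRB gave 0.06 and -0.18 without passing. With Compound A, NCOA3 rose by 0.42 (7.1e-04) and the deacetylase SIRT1 by 0.31 (edgeR adjusted p = 0.0061), while 1 of the 14 rose with the compared groups alone. None of the 14 passed with ALOX15 siRNA in edgeR or DESeq2.

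Of 10 genes that form or remove oxysterols, 5 could be tested. The sterol sulfotransferase SULT2B1 and HSD3B7, an enzyme of bile acid synthesis, rose with IL4 by 0.56 (log2, edgeR adjusted p = 0.030) and 0.46 (0.010), and neither passed without IL4 replicate 1, with GC content correction or with the compared groups alone. Without untreated replicate 2, 1 of them passed. SULT2B1 was lower with ALOX15 siRNA, at 6.00 ± 1.11 CPM, than with control siRNA, at 12.0 ± 1.61 CPM (-1.01, adjusted p = 0.016). That call was lost without control siRNA replicate 1 or 3 or ALOX15 siRNA replicate 2 or 3.

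Most genes of sterol synthesis and uptake that SREBP2 drives were lower with Compound A. Of 17 tested, 12 fell and none rose relative to IL4 alone, with a median of -0.30 beside 0.00 over all genes. They included MVK (log2 -0.66, edgeR adjusted p = 0.033), LSS (-0.58, 0.0053) and MVD (-0.58, 0.015), enzymes of the mevalonate and sterol pathway. The number was 5 without Compound A replicate 2, 6 without Compound A replicate 3 and 3 with the compared groups alone, and 1 rose without IL4 replicate 3 or with GC content correction. With IL4, 2 rose (INSIG1 0.58, HMGCS1 0.23) and 2 fell, among them CYP51A1 (-0.28), or 1 in each direction without untreated replicate 3 or with the compared groups alone. The number that fell was 1 without untreated replicate 2 and 4 with GC content correction. With ALOX15 siRNA 1 rose, INSIG1 (82.3 ± 8.14 CPM with ALOX15 siRNA, 56.1 ± 1.16 CPM with control siRNA; 0.55, 0.0024). The number was 3 without IL4 replicate 1, 4 with GC content correction and 6 with the compared groups alone.

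**Figure D4:**
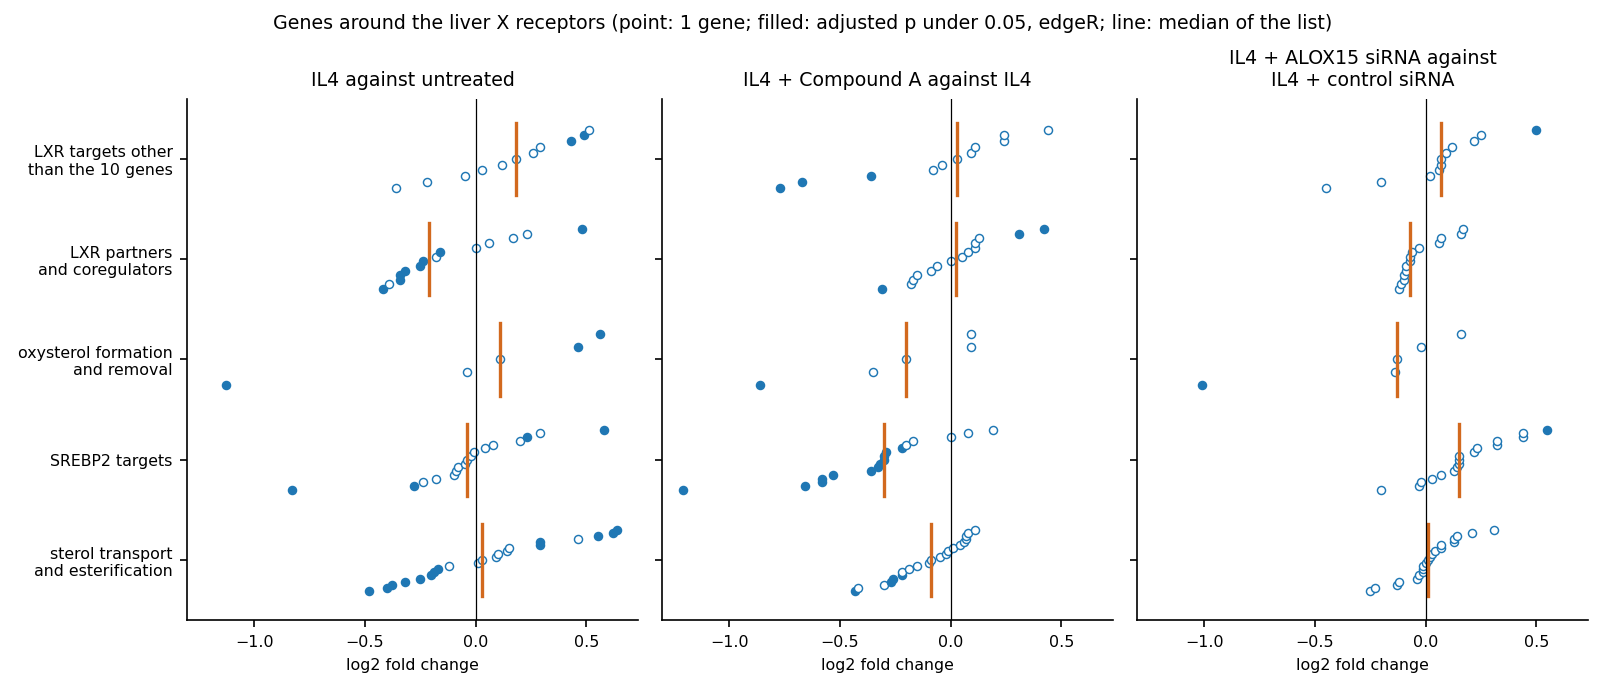
Log2 fold change (horizontal axis) of each tested gene in 5 lists around the receptors (vertical axis) in the 3 main comparisons; filled points have an edgeR adjusted p under 0.05 and the line marks the median of the list. The SREBP2 targets lie mostly left of 0 with Compound A (median -0.30) and have a median of 0.15 with ALOX15 siRNA.

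Of 21 tested genes of sterol transport and esterification, 5 rose and 8 fell with IL4, with a median of 0.03. STARD4, a soluble sterol carrier, rose by 0.64 (edgeR adjusted p = 0.017), OSBPL5 by 0.62 (0.039) and the caveolar protein CAV1 by 0.55 (2.4e-05). SOAT1, which esterifies cholesterol for storage, fell by 0.48 (2.7e-04). Over the 24 alternative fits 2 to 6 rose and 4 to 8 fell, 4 of them without untreated replicate 2 and 5 in most others. LIPA, the lysosomal lipase upstream of NPC2 and NPC1, gave 0.01 with IL4 and 0.11 with Compound A. With Compound A 4 fell and none rose: the lipoprotein receptor SCARB1 (-0.43, 0.0025), OSBPL10 (-0.27), LRP8 (-0.26) and TMEM97 (-0.22). That was 2 without Compound A replicate 2 or 3 and none with the compared groups alone. None passed with ALOX15 siRNA in edgeR or DESeq2, while 2 fell when IL4 replicate 1 was left out, with GC content correction and with the compared groups alone.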

How the data were processed

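RNA was extracted with a column kit and sequenced with standard Illumina library preparation, per the labels' protocols. The strand setting and gene annotation of the counting are not given in the sources used here. Per the submitters' processing notes, the tools were Bowtie2 2.1.0 and RSEM 1.2.15 and the genome build hg38. The deposited table holds expected counts per gene, which are estimated counts without normalization, and they were rounded to whole numbers. Counts were fitted with edgeR 4.0.16 in R 4.3.3: TMM scaling, edgeR's default expression filter, 1 coefficient per group over all 15 libraries and a robust quasi-likelihood test, with Benjamini-Hochberg adjustment over 12795 genes and a threshold of 0.05. The standard error is the size of the log2 change divided by the square root of F, and intervals are at 95%. The fit was tested on simulated counts drawn from its own gene means and spreads. These held no GC trend and no deviating library, so that test does not bear on IL4 replicate 1. Log2 CPM used a prior count of 2.

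The members and lists were chosen with earlier results of these data known. All 10 members are described, and of each list up to 4 genes per comparison are named, those with the largest log2 change among genes that passed; some genes of the lists are not reported here. APOE, LPCAT3, RXRA, RXRB, LIPA, LAMP3 and CTSH were named after their values were seen. Loci are from GENCODE 29 (GRCh38) and promoters from RefSeq (GRCh38.p14). Alternatives were 2 other scalings, 2 other filters, unrounded counts, DESeq2 1.42.0, the compared groups alone, a replicate block, a GC content correction and each library left out.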

Additional observations from a re-analysis of the deposited data

Results flagged for a closer look

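ABCA3, the lamellar body phospholipid transporter, was set apart because the Compound A effect and the ALOX15 siRNA effect, each relative to its own IL4-treated control, differed in the test of the difference itself. The difference was -0.44 on the log2 scale (SE 0.13, 95% interval -0.70 to -0.17, edgeR adjusted p = 0.050, under the threshold before rounding). Its parts were -0.18 with Compound A relative to IL4 alone (adjusted p = 0.18) and 0.26 with ALOX15 siRNA relative to control siRNA (adjusted p = 0.30). The difference passed in 10 of 23 alternative fits, at -0.51 to -0.30 over all 23. Without IL4 replicate 1 it was -0.30 (adjusted p = 0.075).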

How the results depend on the processing

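With the compared groups alone, the members called were 1 for IL4 against untreated (4 in the fit of all 15 libraries), 1 for Compound A against IL4 alone (4), 1 for ALOX15 siRNA against control siRNA (0), 2 for Compound A against control siRNA (0) and 0 for ALOX15 siRNA against IL4 alone (1). With GC content correction the counts were 1 for ALOX15 siRNA against control siRNA, 3 for ALOX15 siRNA against IL4 alone and 2 for the difference of effects (1). The difference gave 0 under a filter of at least 1 CPM in 3 libraries, which admitted 13232 genes where the main filter admitted 12795. Leaving out each library gave 2 to 5 for IL4 (2 without untreated replicate 2), 1 to 4 for Compound A, 0 to 1 for ALOX15 siRNA against control siRNA, 0 to 1 for Compound A against control siRNA, 0 to 2 for ALOX15 siRNA against IL4 alone and 0 to 1 for the difference. NR1H2 with Compound A (-0.02) turned to 0.19 with GC content correction and ran from -0.09 to 0.07 over the left-out libraries (0.07 without IL4 replicate 1, 0.01 without Compound A replicate 1). ABCA3 with ALOX15 siRNA was 69.5 CPM on plain library totals (70.2 as reported). Over all genes, the compared groups alone gave 1466 calls for IL4, 397 for Compound A and 325 for ALOX15 siRNA against control siRNA. The cause of these moves was not tested. Whether replicate numbers pair the libraries is not settled here. Same-number correlations ran from -0.13 to 0.29, with 6 of 30 over 0.1. The best match among the 3 libraries of another group had the same number in 15 of 30 cases. Over all genes, a replicate block gave 3363 calls for IL4 against 2925 without it, and 2508 for Compound A against 1846. With a replicate block the counts were 6 for IL4 (adding ABCA2, adjusted p = 0.036, and ABCG1, 0.0496), 4 for Compound A, 0 for ALOX15 siRNA against control siRNA and 7 for any difference, and 1 surfactant gene rose with ALOX15 siRNA (0 without the block). Intervals rest on the spread within groups of 3 libraries, estimated over all 15 libraries in 1 fit. Genes under about 10 CPM, such as MYLIP and NR1H3, were measured least precisely.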

Other observations

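Of 16 listed lipid transporters of the ABC families outside the 10 genes, 8 could be tested, and ABCG2, an exporter of urate, porphyrins and many drugs, passed in each of the 3 main comparisons. ABCG2 averaged 57.6 ± 4.96 CPM with IL4 alone and 85.1 ± 2.40 CPM untreated (SD, n = 3 each), a change of -0.56 on the log2 scale (edgeR adjusted p = 1.1e-05). With ALOX15 siRNA it averaged 42.7 ± 1.34 CPM, against 63.3 ± 3.66 CPM with control siRNA (-0.57, SE 0.08, adjusted p = 9.8e-04). With Compound A it averaged 70.0 ± 4.93 CPM, against 57.6 ± 4.96 CPM with IL4 alone (0.28, SE 0.08, adjusted p = 0.019), a call that ended when IL4 replicate 1, Compound A replicate 1 or Compound A replicate 3 was left out, with GC content correction and with the compared groups alone. The Compound A effect minus the ALOX15 siRNA effect was 0.85 (SE 0.11, adjusted p = 1.3e-04).

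ABCD3, which carries fatty acids into peroxisomes, averaged 75.9 ± 12.9 CPM with IL4 and 93.0 ± 0.334 CPM untreated (log2 -0.29, edgeR adjusted p = 0.022). With IL4, 2 of the 8 fell, or 1 without untreated replicate 1 or 3 or IL4 replicate 1, with GC content correction and with the compared groups alone. None rose, or 1 without IL4 replicate 3 or Compound A replicate 2 or 3 and with GC content correction. The median change of the 8 was -0.11 with IL4, 0.00 with Compound A and 0.07 with ALOX15 siRNA. With Compound A none of the 8 fell, or 1 in DESeq2, with upper-quartile scaling, with GC content correction and without untreated replicate 1. ABCA8 was near the limit of detection, at 1.43 ± 0.423 CPM with control siRNA and 3.28 ± 0.880 CPM untreated (-1.18, adjusted p = 0.010).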
